A study of Mus musculus with 310 samples.

Results

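Mt1, Mt2 and Mt4 are the nuclear genes for the metallothioneins MT1, MT2 and MT4, and were chosen by name, as 3 of the 14068 genes in the count table, with their levels by plate and group already known. They are not the mitochondrially encoded genes, whose names begin with mt-. Mt3 is not analysed here. All 3 passed the filter on low counts, so every member is described.

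The study followed Lrig1-lineage keratinocytes of aged mouse tail skin, to learn whether a past wound leaves a lasting change in cells far from it. Mice of a mixed CBA and C57BL/6 background carried Lrig1-EGFP-ires-CreERT2, which puts a drug-inducible Cre under the control of a gene of junctional zone stem cells in the hair follicle, and Rosa26-fl/STOP/fl-tdTomato, a red reporter that Cre switches on. Hydroxytamoxifen was put on the tail once, and tdTomato-positive cells were later sorted singly into wells, so the label marks cells that expressed Lrig1 at that time together with their progeny. The labels put 145 cells in the group 38w and 165 in the group 38wUW, both with a time of 38 weeks. The age of the mice, how many gave cells to a replicate and whether replicates are separate mice are not given in the labels, so p-values measure the spread between these samples, which may be technical. What UW stands for, and which group was wounded, cannot be read from the labels, so all differences are 38w minus 38wUW. In 38w, plates C114 (53 cells) and C118 (17 cells) hold replicate RepI, and C119 (75 cells) holds RepL. In 38wUW, C128 (82 cells) holds RepM and C129 (83 cells) holds RepN.

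Metallothioneins are small proteins, rich in cysteine, whose thiol groups bind zinc and copper. Mt1 and Mt2 are expressed in most tissues, and zinc, other metals, glucocorticoids and oxidants raise their transcription, the metals through the factor MTF1. Mt4 is known from stratified squamous epithelia, where differentiating keratinocytes express it. The 3 genes lie in 1 cluster on the plus strand of chromosome 8 (GRCm38), with Mt3 between Mt4 and Mt2, Mt4 at 94137197 to 94139031, Mt2 at 94172664 to 94173568 and Mt1 at 94179082 to 94180327, and each has 3 exons. Their main transcripts are 398, 511 and 549 nucleotides long for Mt4, Mt2 and Mt1. The reading frames encode 62 residues for MT4 and 61 for MT1 and for MT2, of which 20 are cysteines in each. MT1 and MT2 were identical at 75.4% of aligned residues, MT1 and MT4 at 58.1% and MT2 and MT4 at 62.9%.

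The transcripts of the 3 genes shared 0 stretches of 31 bases, so few reads could be assigned to the wrong member. The estimated counts were not whole in 2 cells for Mt1 and in 0 cells for Mt2 and Mt4. An antisense gene, Gm45774, overlaps Mt2 on the minus strand (94170748 to 94173412) and is not in the table. The library protocol does not mark strand, so reads from Mt2 and from its antisense partner cannot be told apart.

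The 250 bases before each RefSeq start are shown because Mt1 and Mt2 varied together from cell to cell, more so than either did with Mt4 in the mean over plates. The windows are chr8:94178839-94179088 for Mt1, chr8:94172368-94172617 for Mt2 and chr8:94136954-94137203 for Mt4, from RefSeq on GRCm38.p6, plus strand, written 5′ to 3′. Capitals mark matches, on either strand, to the core of the metal response element, the DNA motif that MTF1 binds, searched as TGCACNC and TGCGCNC.
Mt1: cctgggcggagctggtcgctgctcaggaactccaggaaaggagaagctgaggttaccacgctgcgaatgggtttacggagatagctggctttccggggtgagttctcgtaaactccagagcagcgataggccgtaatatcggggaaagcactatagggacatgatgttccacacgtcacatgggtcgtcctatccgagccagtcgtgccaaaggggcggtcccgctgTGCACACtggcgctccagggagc
Mt2: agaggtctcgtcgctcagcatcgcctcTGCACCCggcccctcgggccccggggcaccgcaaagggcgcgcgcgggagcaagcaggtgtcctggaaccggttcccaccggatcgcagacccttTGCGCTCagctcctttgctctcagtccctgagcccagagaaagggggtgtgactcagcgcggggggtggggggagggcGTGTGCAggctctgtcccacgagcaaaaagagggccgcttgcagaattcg
Mt4: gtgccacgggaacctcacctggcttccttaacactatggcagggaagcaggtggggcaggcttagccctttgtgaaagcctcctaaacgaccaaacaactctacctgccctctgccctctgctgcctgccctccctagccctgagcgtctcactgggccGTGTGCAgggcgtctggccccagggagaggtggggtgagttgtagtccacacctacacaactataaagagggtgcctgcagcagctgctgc
Before the RefSeq start, Mt1 held 1 match, Mt2 held 3 and Mt4 held 1. With the 50 bases after the start added, the counts were 3, 4 and 1. The matches added for Mt1 lay at bases 253 to 259 and 271 to 277 of its window. Sequence beyond the windows was not searched, so the counts depend on the annotated start and are not those of a whole promoter. Of 32851 RefSeq windows of 300 bases, 25.7% held at least 1 match, 1.97% at least 3 and 0.517% at least 4. Inside the same windows of 300 bases, the core of the antioxidant response element, TGACNNNGC, was found once, in Mt2, and 12.4% of all windows held it. Whether Mt1 or Mt4 holds it outside these windows was not searched. A match is a description of the letters and does not show that a factor binds there.

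The libraries held 11711 to 721564 reads per cell (median 61294), without molecular identifiers, so intervals on shares cover counting error only. Sums per plate were 1719788 to 12946742 reads. Krt14, a keratin of basal keratinocytes, had reads in 90% of cells and Krt10, a keratin of differentiating layers, in 60% of cells. Of 5 immune markers 2 were in the table, with summed levels of 0.377 to 2.91 CPM (reads per 1000000 reads of the plate) by plate; fibroblast markers (4 of 5) summed to 1.74 to 74.6 CPM, and melanocyte markers (2 of 4) to 5.26 to 15.1 CPM. Of 3 endothelial markers, Kdr had reads in 8 cells and Pecam1 in 310 of 310 cells, and Cdh5 was not in the table. Kdr and Pecam1 together summed to 1168 to 8773 CPM by plate. Whether the Pecam1 reads come from the mapping was not tested. Plate C114 stood apart from the other plates, where ribosomal protein genes took 31.8% of the reads in the median cell, against 3.6% to 6.80% elsewhere. Its mitochondrial share was 2.77%, against 9.69% to 33.8%.

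Mt1 and Mt2 were far higher on C114 than on any other plate. Summed over the cells of a plate, Mt1 stood at 1312 CPM on C114, 138 on C118, 159 on C119, 174 on C128 and 219 on C129. Mt2 stood at 1152 CPM on C114, 219 on C118, 124 on C119, 148 on C128 and 189 on C129. The other 4 plates differed little among themselves, and C118, which holds the rest of RepI, was not near C114. C114 was thus 5.98 to 9.52 times the other plates for Mt1 and 5.27 to 9.25 times for Mt2. A gene standing highest on C114 was common, since 29.5% of the 11760 genes that passed the filter did so.

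Mt4 had a graded order over the plates. It stood at 5281 CPM on C114, 1116 on C118, 369 on C119, 99.2 on C128 and 19.1 on C129. The 3 plates of 38w were all above both plates of 38wUW, an order that 3.87% of the genes shared. On 3 of the plates a single cell held most of the Mt4 reads. The top cell held 67.7% of the Mt4 reads on C118, 55.2% on C128 and 64.8% on C129, but 13.5% on C114 and 14.6% on C119. In a sum over cells, fewer expressing cells and less RNA per cell cannot be told apart.

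**Figure D1:**
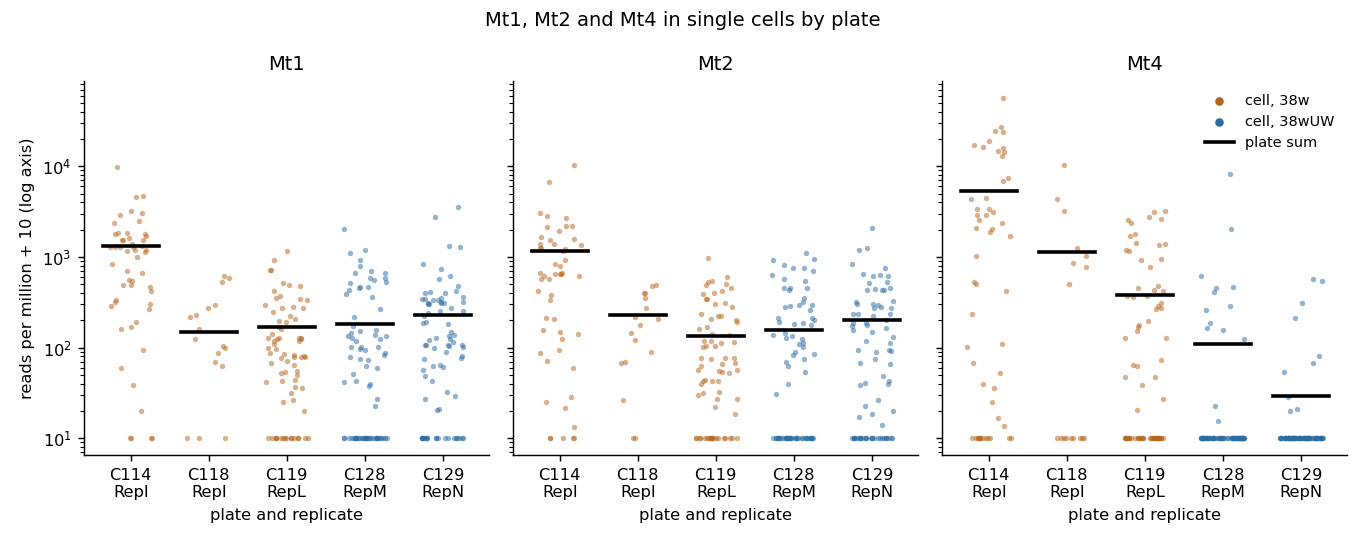
Level of Mt1, Mt2 and Mt4 in each cell (points, CPM plus 10, log axis) by plate and replicate, with the level in the summed reads of the plate as a black line. Mt1 and Mt2 are high on C114 only, at 1312 and 1152 CPM, whereas Mt4 steps down from 5281 CPM on C114 to 19.1 CPM on C129, where most cells lie at 0.

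Within plates the cells were spread widely. On C114 the Mt1 level ranged from 0 to 9931 CPM over 53 cells, with a median of 1121, and that of Mt2 from 0 to 10281, with a median of 631. On C129 Mt1 ranged from 0 to 3563 CPM over 83 cells, with a median of 97.5, and Mt2 from 0 to 2053, with a median of 80.8. Cells of at least 1000 CPM were 27 of 53 on C114 for Mt1 and 19 of 53 for Mt2, so the high level there was not the work of a single cell. On the other 4 plates together, such cells were 8 for Mt1 and 4 for Mt2. The highest cell for each of them was a sebocyte-scored cell of C114, which held 26.5% of that plate's Mt1 reads and 31.2% of its Mt2 reads. Mt4 on C114 ranged from 0 to 56582 CPM, with a median of 1013, and on C129 from 0 to 560, with a median of 0.

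By replicate, the groups overlapped for Mt1 and Mt2 and did not for Mt4. Mt1 stood at 1104 CPM in RepI and 159 in RepL of 38w, and at 174 in RepM and 219 in RepN of 38wUW. The means were 632 ± 668 CPM (SD, n = 2) and 197 ± 31.9 CPM (SD, n = 2). RepL lay below both replicates of 38wUW, so the higher mean of 38w was RepI alone. The Mt2 level of RepI was 987 CPM and that of RepL 124 CPM, and RepM and RepN stood at 148 and 189 CPM, with means of 556 ± 610 and 169 ± 28.8 CPM (SD, n = 2 each). Here too RepL was the lowest of the 4. The Mt4 level of RepI was 4545 CPM and that of RepL 369 CPM, and RepM and RepN stood at 99.2 and 19.1 CPM, with means of 2457 ± 2953 and 59.2 ± 56.7 CPM (SD, n = 2 each). Both replicates of 38w were above both of 38wUW, as they were for 12.6% of genes.

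The log2 differences from the edgeR fit over all genes are given with no test, because the genes were chosen with these levels known. They were 1.94 for Mt1, 1.98 for Mt2 and 5.63 for Mt4, beside a median of 0.12 over all genes. Without plate C114 they were -0.16 for Mt1, 0.29 for Mt2 and 3.92 for Mt4. Without RepI as a whole they were -0.077, -0.21 and 2.87. The Mt1 and Mt2 differences in summed level therefore rested on C114, and that of Mt4 kept its direction without it. Across all genes, 0 of 11760 passed the edgeR test between the groups (0%), 949 had an unadjusted p under 0.05 (8.07%) and DESeq2 called 68 (0.578%). Without RepI, edgeR called 169 genes (1.38%), and without RepL 1215 (9.4%), while leaving out RepM or RepN gave 0. Without RepI or RepL, 38w is a single sample, assumed to vary as the replicates of 38wUW do.

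The labels carry a batch tag and an alternative tag that pair the plates in different ways. Under the batch tag, Mt4 on C118 and C119 was 58.5 and 19.3 times that on C129, and on C114 it was 53.2 times that on C128. Under the alternative tag, which exchanges C128 and C129, the folds were 11.2, 3.72 and 277. Mt4 was higher in 38w in every pairing, which follows from the plate order given above, so the pairings add no separate support. For Mt1, C118 and C119 were 0.628 and 0.724 times C129, and C114 was 7.52 times C128, so the direction differed between the batches. Mt2 on C118 and C119 was 1.16 and 0.658 times that on C129, and on C114 it was 7.76 times that on C128.

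The share of cells with a read is less open to single strong cells. With reads sampled down to 20000 in each of the 277 cells that had as many (7 cells of 38w and 26 of 38wUW had fewer), Mt4 reads remained in 63.2% of RepI cells, 48.6% of RepL, 14.1% of RepM and 6.67% of RepN. The Wilson 95% intervals were 51.4 to 73.7, 37.2 to 60, 7.58 to 24.6 and 2.88 to 14.7. The group means were 55.9% ± 10.4 and 10.4% ± 5.23 (SD, n = 2 each), 45.5 points apart. The plate C118 held Mt4 reads in 47.1% of its cells, close to C119, and C114 in 68.6%. For Mt1 the share was 76.9% ± 11.8 in 38w and 59.2% ± 8.63 in 38wUW, and for Mt2 it was 74.7% ± 10.8 and 55.9% ± 3.92. In RepI, RepL, RepM and RepN the thinned shares were 85.3%, 68.6%, 53.1% and 65.3% for Mt1. For Mt2 they were 82.4%, 67.1%, 53.1% and 58.7%. Without C114 the gap between the groups was 10.4 points for Mt1 and 18.9 points for Mt2. The shares thus rested less on that plate than the summed levels did. For Mt1 that gap was no wider than the pooled SD of the replicates, 10.4 points. How many of all genes have such gaps was not counted. The members were chosen with their group levels known, so the gaps are description only. The gap was widest for Mt4. Unthinned, the shares were 84.3% ± 8.01 and 68.4% ± 10.6 for Mt1, 82.3% ± 10.8 and 61.8% ± 9.76 for Mt2, and 61.6% ± 9.83 and 14.6% ± 3.55 for Mt4 (SD, n = 2 each).

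The plates also differed by transcript length, and all 3 metallothionein transcripts are short. Length is that of the main transcript, or the median of all transcripts where a gene has no main one. For the 200 genes of up to 600 nucleotides, the median difference in log2(CPM + 1) between C114 and the mean of the other plates was 1.61. Over the 172 of them that are not ribosomal protein genes, it was 0.904. It was 1.28 (0.985 without ribosomal protein genes) for 584 genes of 601 to 1000 nucleotides, -1.07 for 1953 genes of 2501 to 4000 and -1.50 for 2175 longer ones, with -0.73 over all genes. Mt1 had a difference of 2.94 and Mt2 of 2.78, at percentiles 72 and 69.5 among the 200 genes of up to 600 nucleotides, ribosomal protein genes included. Mt4 had a difference of 4.96, at percentile 97.5. The part of transcript length in the C114 levels was not tested.

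Each cell was next scored on 6 marker lists (mean z of log2(CPM + 10)) and put in the class of its best score. This gave 81 basal-scored cells, 52 interfollicular differentiated-scored, 67 infundibular and duct differentiated-scored, 54 bulge-scored, 26 sebocyte-scored and 30 junctional zone-scored cells. The metallothioneins are in none of the marker lists. The classes are ranges of a score, not cell types, and 29 cells lay within 0.1 of the next class. In interfollicular differentiated-scored cells the median was 8377 CPM for Krt10 and 714 CPM for the basal keratin Krt14, and it was 0 CPM for Krt79, a keratin of the sebaceous duct and infundibulum. In basal-scored cells the medians were 10.1 CPM for Krt10, 7646 CPM for Krt14 and 0 CPM for Krt79. Not every marker followed its class. Lor, Krt36 and Krt84 are in the interfollicular list, and their medians were 0 CPM in that class. Infundibular and duct differentiated-scored cells had more Sbsn, also of that list (482 against 86.8 CPM in the interfollicular class), and 1173 CPM of Krt10. Plet1, of the junctional zone list, had reads in 85.1% of infundibular and duct differentiated-scored and 46.7% of junctional zone-scored cells.

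Mt4 reads were found in most interfollicular differentiated-scored cells and in few bulge-scored or junctional zone-scored cells. With all plates together, they were present in 48 of 52 interfollicular differentiated-scored cells (92.3%, Wilson 95% interval 81.8 to 97) and in 53.1% of basal-scored cells (42.3 to 63.6). The share was 26.9% in sebocyte-scored cells, 14.9% in infundibular and duct differentiated-scored cells, 7.41% in bulge-scored cells (2.92 to 17.6) and 3.33% in junctional zone-scored cells (0.591 to 16.7). Bulge-scored cells held 9 Mt4 reads in all, although their median depth of 97780 reads was the highest of the 6 classes; the junctional zone-scored cells had the lowest, 45451 reads. The bulge share is taken as the background. The groups enter the classes unequally, since 52 of 81 basal-scored but 15 of 54 bulge-scored cells are from 38w, so the shares are also given by group. In 38w, Mt4 was found in 97.1% of interfollicular differentiated-scored, 75% of basal-scored, 42.9% of sebocyte-scored, 38.1% of infundibular and duct differentiated-scored and 6.67% of bulge-scored cells. In 38wUW the shares were 82.4%, 13.8%, 8.33%, 4.35% and 7.69%. The interfollicular differentiated-scored cells thus led in both groups. In 38wUW the intervals of the other 3 classes (5.50 to 30.6, 1.49 to 35.4 and 1.20 to 14.5) overlapped that of the bulge class (2.65 to 20.3). In 38w the interval of the basal class (61.8 to 84.8) lay above that of the bulge class (1.19 to 29.8), while the other 2 overlapped it. These intervals count cells, not replicates, and are no test between classes. C114 gave 21 of the 52 basal-scored cells of 38w but 1 of its 15 bulge-scored cells, so plate and class cannot be told apart in these shares. Of the 47 cells with at least 1000 CPM of Mt4, 29 were interfollicular differentiated-scored, 16 were basal-scored and 2 were infundibular and duct differentiated-scored. Of the 16 basal-scored ones, 13 came from C114.

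**Figure D2:**
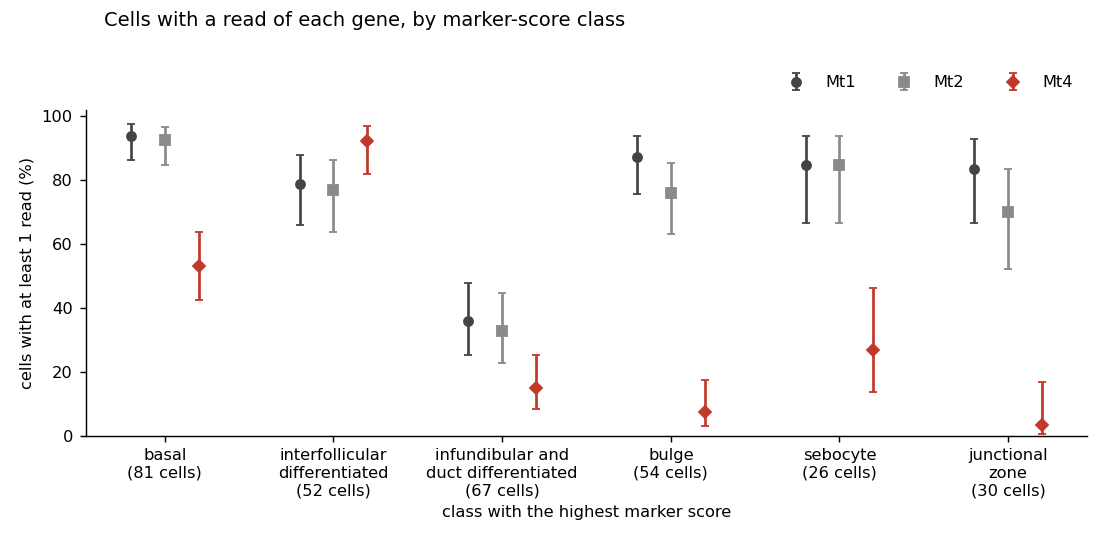
Percentage of cells with at least 1 read of Mt1, Mt2 and Mt4 in each of the 6 marker-score classes, all plates together, with Wilson 95% intervals for counting error. Mt4 peaks in interfollicular differentiated-scored cells at 92.3%, and Mt1 and Mt2 are lowest in infundibular and duct differentiated-scored cells, at 35.8% and 32.8%.

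Within each plate Mt4 was higher in interfollicular differentiated-scored than in basal-scored cells. In 38w the levels were 11056 and 4986 CPM (C114), 3660 and 59.8 CPM (C118), and 1255 and 314 CPM (C119). In 38wUW they were 893 and 14.3 CPM on C128 and 163 and 2.30 on C129. The fold was thus smallest on C114, at 2.22, followed by C119, and it was 61.2 to 71.0 on the others, where 12 and 4 reads stood behind the basal sums of C128 and C129. Of 9178 genes tested, 3.57% were higher on all 5 plates. On sums per plate and class with the plate as a term, the log2 fold change was 4.42 (SE 0.77, adjusted p = 0.0121, edgeR's quasi-likelihood test, higher on 5 of 5 plates). The test called 80 genes (0.872%), 61 of them higher (0.665%). Mt4 no longer passed with cells summed per replicate, which joins the plates of RepI (3.79, edgeR adjusted p = 0.0841). It did not pass either without RepI (4.96, edgeR adjusted p = 0.207), without RepM (3.85, edgeR adjusted p = 0.0609) or with at least 5 cells per sum, which drops C118 (3.80, edgeR adjusted p = 0.0669).

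Mt1 and Mt2 did not follow Mt4 in this contrast. Mt1 was lower in interfollicular differentiated-scored cells on 4 of 5 plates and Mt2 on 5 of 5. The log2 fold changes were -0.63 (SE 0.40, edgeR adjusted p = 0.651) for Mt1 and -1.08 (SE 0.54, edgeR adjusted p = 0.490) for Mt2. Neither passed the test, and 36.4% of genes were not higher in interfollicular differentiated-scored cells on at least 4 plates.

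**Figure D3:**
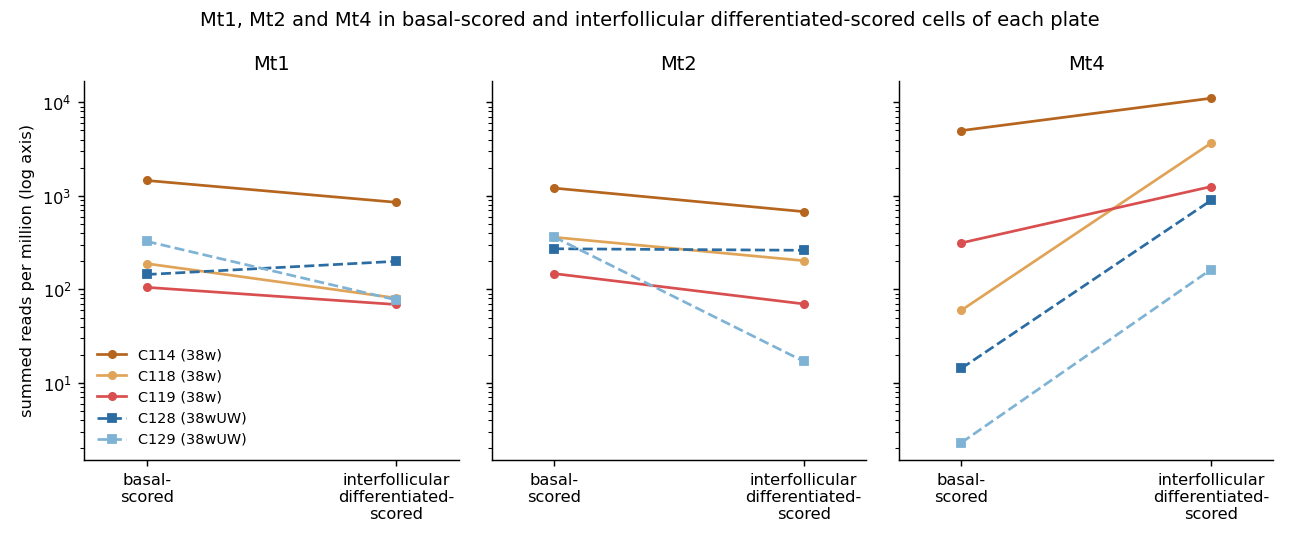
Level of Mt1, Mt2 and Mt4 (CPM in the summed cells, log axis) in basal-scored and interfollicular differentiated-scored cells, with 1 line per plate and no error bars because each point is a single sum. Every Mt4 line slopes upward, from 2.30 to 163 CPM on C129 and from 4986 to 11056 CPM on C114, whereas 4 of 5 Mt1 lines and all 5 Mt2 lines slope downward.

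For Mt4, the plates of 38w were above those of 38wUW inside both classes too. The share of all genes with this order inside a class was not counted, and Mt4 was chosen with its plate levels known, so the order adds no separate support. As given above, a single cell held most of the Mt4 reads on C118, C128 and C129. In interfollicular differentiated-scored cells, C114, C118 and C119 (11056, 3660 and 1255 CPM) were all above C128 and C129 (893 and 163 CPM). The same held in basal-scored cells, whose levels are given above, although there C119 (314 CPM) was above C118 (59.8 CPM, from 26 reads in 1 of 4 cells). The mix of classes moved with the group as well: interfollicular differentiated-scored cells were 24.1% of 38w and 10.3% of 38wUW, and basal-scored cells 35.9% and 17.6%. The part of the class mix in the group difference was not tested. For Mt1, basal-scored cells of C114 stood at 1461 CPM against 105 to 327 CPM on the other plates, and for Mt2 at 1211 against 148 to 364 CPM, so the C114 level was present within that class too.

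Mt1 and Mt2 were found in the smallest share of cells in the infundibular and duct differentiated-scored class, whose markers include Krt79 and Cst6. Mt1 was found in 24 of 67 of these cells (35.8%, Wilson 95% interval 25.4 to 47.8) and Mt2 in 22 of 67 (32.8%, 22.8 to 44.7), against 93.8% (86.4 to 97.3) and 92.6% (84.8 to 96.6) of basal-scored cells. The median depths of 60585 and 60226 reads were alike. Infundibular and duct differentiated-scored cells were 14.5% of 38w and 27.9% of 38wUW. The part of this mix in the group shares of Mt1 and Mt2 was not tested. In the other 4 classes the shares were 78.8% to 87.0% for Mt1 and 70% to 84.6% for Mt2. By group, Mt1 was found in 52.4% of these cells in 38w and 28.3% in 38wUW, and Mt2 in 42.9% and 28.3%, the lowest share of the 6 classes in both groups. In 38wUW Mt2 was also found in only 47.1% of the interfollicular differentiated-scored cells (8 of 17), so the classes were less apart there. By plate the Mt1 level in these cells was 455 CPM on C114, 7.44 on C119, 7.97 on C128 and 176 on C129, and 0 in the 1 cell on C118. That of Mt2 was 329, 22.3, 5.70 and 60.8 CPM on the same plates and 0 on C118. Each value was below that of the basal-scored cells of its plate, an order on 5 of 5 plates that 11.9% of genes shared. In summed level the class was not always the lowest, since on C129 the interfollicular differentiated-scored cells stood at 77.1 CPM of Mt1 and 17.1 CPM of Mt2. Pooled over 38w, bulge-scored cells stood at 223 and 108 CPM against 327 and 241 CPM. C114 gave 12 of the 21 infundibular and duct differentiated-scored cells of 38w, but 1 of the 15 bulge-scored cells. By plate, Mt1 in bulge-scored cells was 149 CPM on C114, 60.7 on C118 and 311 on C119, so it was the lower of the 2 classes on C114 only. The comparison of the infundibular and duct differentiated-scored class with the others was picked after the values were seen, so it is given with no test.

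Across single cells, Mt1 and Mt2 varied together. Pearson's r of their log2(CPM + 10) was 0.78 on C114, 0.46 on C118, 0.51 on C119, 0.80 on C128 and 0.65 on C129, over 53, 17, 75, 82 and 83 cells. The mean over plates was 0.64. Reads of both were present in 205 of 310 cells, of Mt1 alone in 30, of Mt2 alone in 16 and of neither in 59. For Mt1 and Mt4 the mean r was 0.12 (-0.05 to 0.48) and for Mt2 and Mt4 0.08 (-0.08 to 0.21). C114 held the highest r of Mt1 and Mt4, 0.48 over 53 cells, and on the other plates r was at most 0.10, too weak in sparse counts to be read as a relation. All values in a cell share its library and depth. Per kilobase of transcript, the level of Mt1 was 1.06, 0.587, 1.19, 1.09 and 1.08 times that of Mt2 on C114, C118, C119, C128 and C129, so the pair kept nearly equal levels on 4 of 5 plates. Per kilobase, Mt4 stood at 5.55, 11.2, 3.20, 0.785 and 0.120 times Mt1 on the same plates. In summed reads per kilobase, Mt4 led the metallothioneins on the 3 plates of 38w and lay below Mt1 on both plates of 38wUW. The lead was one of sums and did not hold in the median cell of every plate. The median cell of C118 had 0 CPM of Mt4 beside 113 CPM of Mt1. For C119 the medians of Mt4 and Mt1 were 37.5 and 72.7 CPM, and C114 had 1013 and 1121 CPM. These medians are not scaled by transcript length.

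**Figure D4:**
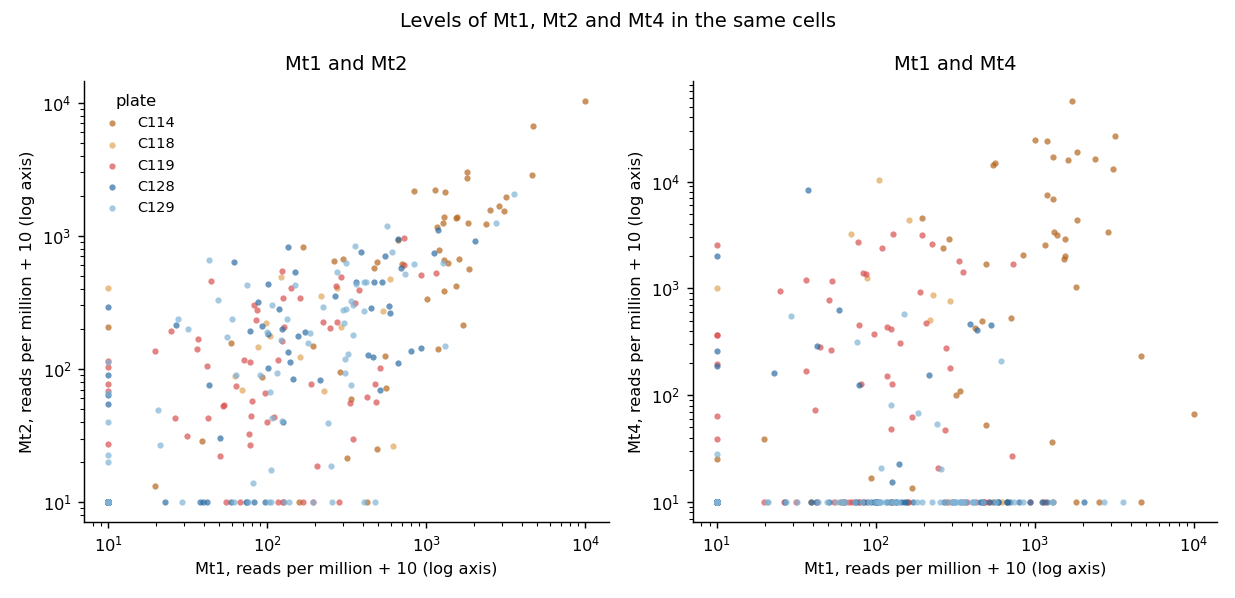
Level of Mt2 (left) and Mt4 (right) against Mt1 in each of 310 cells, in CPM plus 10 on log axes, coloured by plate. Mt2 follows Mt1 on every plate, with a mean r of 0.64, and Mt4 has a mean r of 0.12 with Mt1, from -0.05 to 0.48, the highest being on C114.

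Among genes found in at least 20% of cells, Mt2 was the gene most like Mt1, and Mt1 the gene most like Mt2, by mean within-plate r. After the metallothioneins themselves, the genes nearest to Mt1 were S100a10, which encodes a partner of annexin A2 (mean r = 0.44), Fth1, the ferritin heavy chain (0.43), Col17a1, a hemidesmosomal collagen of basal keratinocytes (0.41), and the ribosomal protein genes Rps28 (0.41) and Rpl15 (0.41). Those nearest to Mt2 were Fth1 (0.53), Col17a1 (0.49), Slc6a6, the taurine transporter (0.47), Tgfbi, a secreted matrix protein (0.41), and Tspo, an outer mitochondrial membrane protein (0.41). Fth1 and Col17a1 thus stood among the first 5 of both. The genes nearest to Mt4 were Krt2, a keratin of upper epidermal layers (0.72), Mettl7a3 (0.67), Ggct, an enzyme of glutathione breakdown (0.58), Ly6d (0.54) and Calm4, a calcium-binding protein of differentiating epidermis (0.53). In the same ranking Mt1 and Mt2 had mean r values of 0.12 and 0.08 with Mt4. Against the class scores, the mean r was 0.62 (0.39 to 0.85 over plates) between Mt4 and the interfollicular score. It was 0.44 (0.38 to 0.54) between Mt1 and the basal score and 0.43 (0.10 to 0.66) between Mt2 and the basal score. Against the infundibular and duct score, the mean r was -0.53 (-0.69 to -0.25) for Mt1 and -0.59 (-0.73 to -0.43) for Mt2.

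Between the groups, 0 of the listed genes for metal handling passed the test. Of 37 listed genes for zinc, copper and iron transport, storage and sensing, 33 were tested and 0 passed (edgeR, adjusted p at least 0.617; 5 had an unadjusted p under 0.05, beside 8.07% of all genes, and 19 lay above 0). Their median log2 difference was 0.22, beside 0.12 over all genes. Mtf1, the metal-sensing factor, stood at 6.17 and 3.62 CPM in RepI and RepL and at 7.86 and 14.6 CPM in RepM and RepN. Slc30a1, the zinc exporter of the cell membrane, stood at 6.79, 34.6, 25.6 and 16.3 CPM in RepI, RepL, RepM and RepN. The 4 listed genes with the highest level were Cox17, a copper chaperone, at 56.3, 14084, 1319 and 160 CPM in RepI, RepL, RepM and RepN, the zinc transporter gene Slc30a9 at 534, 5949, 2552 and 750 CPM, Fth1 at 1155, 378, 288 and 419 CPM, and Ftl1, the ferritin light chain, at 800, 152, 126 and 80 CPM. The ferritin genes were thus highest in RepI, where C114 lies (Fth1 1309 CPM and Ftl1 963 CPM on that plate), as Mt1 and Mt2 were, while Cox17 and Slc30a9 were highest in RepL. Without RepI, 2 listed genes passed (Slc30a4 and Cox17), beside 1.38% of all genes, and without RepL 5 passed (Atox1, Ccs, Cox17, Fth1 and Ftl1), beside 9.4%. Cox17 turned direction between them, from a log2 difference of 4.48 without RepI to -3.38 without RepL.

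Between the classes, 1 of 29 listed metal genes tested passed. Ftl1 was lower in interfollicular differentiated-scored than in basal-scored cells (log2 fold change -2.88, SE 0.49, edgeR adjusted p = 0.0118), where 0.207% of all genes were called lower. Without RepI it did not pass (-2.26, edgeR adjusted p = 0.454). Ferritin genes have near-identical copies in the genome, between which the mapping could split reads. Fth1 had -1.58 (SE 0.38, edgeR adjusted p = 0.0723). DESeq2 called 6 of the 29, beside 6.23% of all genes. Of all genes, 11.2% had an unadjusted p under 0.05, as 6 of the 29 listed genes did.

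Glucocorticoids and stress also raise Mt1 and Mt2, and 22 genes of those responses were listed beside them. Of the 21 tested between groups, 0 passed (edgeR, adjusted p at least 0.617, while 2 had an unadjusted p under 0.05, beside 8.07% of all genes). Of these, 17 lay below 0, with a median of -0.54, beside 0.12 over all genes. The 4 with the highest level were the phosphatase gene Dusp1, at 176, 405, 350 and 660 CPM in RepI, RepL, RepM and RepN, the chaperone gene Hsp90aa1 at 211, 238, 268 and 379 CPM, the kinase gene Sgk1 at 94.7, 184, 290 and 245 CPM, and Nr3c1, the glucocorticoid receptor, at 64.9, 188, 229 and 289 CPM. All 4 were lowest in RepI. Of the 22 listed genes, 13 were lowest in RepI and 4 were highest there, among them Nfkbia, an inhibitor of NF-kappaB, at 321, 70.0, 148 and 108 CPM. The shares of all genes below 0, or lowest or highest in RepI, were not counted. Without that background these counts are not read as a result about the list. Between the classes 0 of 19 tested passed (edgeR; 1 had an unadjusted p under 0.05).

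On C114, 13 cells have a name suffix that the labels do not explain, and 11 wells are named by a pair of cells. Mt1 stood at 1039 CPM in the 13 cells and 1332 CPM in the other 40, Mt2 at 710 and 1185 CPM, and Mt4 at 5723 and 5248 CPM. Both kinds of cell were thus above every other plate for all 3 genes. Cells named for the same well correlated across genes at a median r of 0.55, and other pairs of cells of C114 at 0.51.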

How the data were processed

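Per the study's methods, polyadenylated RNA of sorted cells was amplified with a modified Smart-seq2 protocol and single-end reads were mapped with Salmon 0.13.1 to the mouse Ensembl transcriptome (GRCm38). The deposited table, made by the authors, holds estimated counts per gene and cell with no scaling, of which 3.6% were not whole. Cells without reads of a gene stayed in. The number of other per-sample columns was 0. The lowest cell had 1996 genes.

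Counts were summed per replicate, or per plate and class (at least 3 cells), rounded, filtered with filterByExpr and scaled by TMM. The quasi-likelihood test of edgeR 4.0.16 (R 4.3.3) was two-sided, with p-values adjusted by Benjamini-Hochberg over all genes tested and a threshold of 0.05. DESeq2 1.42.0 was an alternative. The plate was a term in the class fit. CPM are reads per 1000000 reads of a sum or a cell. Classes, likeness and correlations used log2(CPM + 10), and shares of cells used 20000 sampled reads. The scripts were tested on simulated data. No doublet caller was run, since cells were sorted singly.

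The members, gene lists, markers and tests were chosen with earlier results of these data known. Genes named were the members, called list genes or else the 4 highest by mean CPM, the 5 genes most like each member, and Mtf1, Slc30a1, Nfkbia, the genes of small counts and keratins, which were added after their values were seen. The 2 cells with MBULK in the name may be small pools and were kept.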

Additional observations from a re-analysis of the deposited data

How the results depend on the processing

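Without plate C114 the log2 difference between 38w and 38wUW was -0.16 for Mt1 and 0.29 for Mt2. With each replicate left out in turn it ranged from -0.077 to 2.83 for Mt1, from -0.21 to 2.89 for Mt2 and from 2.87 to 7.30 for Mt4. It was -0.077 for Mt1 and -0.21 for Mt2 without RepI and stayed above 0 for Mt4 in all 13 alternatives. The share of cells with a read kept its direction in all 8 alternatives for each gene, from 37.5 to 52.9 points for Mt4. These alternatives reuse the same cells, and the genes were chosen with their group levels known, so a kept direction adds no separate support. Genes called between groups were 68 with DESeq2, 1 with no low-count filter (Krt84), 0 to 1215 with a replicate left out (169 without RepI, 1215 without RepL), 1 with the batch tag as a replicate block (Krt84), and 4 with the alternative tag as the block (Krt36, Skint9, Krt84 and Adamts1). Listed metal genes called ranged from 0 to 5 with a replicate left out, and stress genes from 0 to 1 (Errfi1, without RepL). Genes called between the classes were 572 with DESeq2, 337 with no low-count filter, 53 with sums per replicate and 10 to 74 with a replicate left out. Listed metal genes called there were 6 with DESeq2 (Slc39a10, Slc31a1, Atp7a, Fth1, Ftl1 and Slc40a1), 4 with no low-count filter (Slc39a10, Slc31a1, Fth1 and Ftl1), and 0 to 1 with a replicate left out (Ftl1 was lost without RepI). The Mt4 class difference was 3.79 with sums per replicate and 3.80 with at least 5 cells per sum, neither past the threshold, and ranged from 3.85 to 5.21 with a replicate left out (edgeR adjusted p from 0.0196 to 0.207). Mt1 and Mt2 passed in none of 12 alternatives. Leaving out the 29 cells near a class cut was added after the data were seen and gave 4.44 for Mt4 (edgeR adjusted p = 0.00701). The causes of these changes were not tested. With 2 replicates a group, and RepL, RepM and RepN on 1 plate each, plate and replicate cannot be told apart outside RepI.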
